A study of Mus musculus with 11 samples.

Results

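The AP-1 and immediate early genes Fos, Fosb, Jun, Junb, Jund, Egr1, Egr2, Egr3, Nr4a1 and Dusp1 were followed in sorted mouse splenic B cells. They were found by the Ensembl identifier of each symbol, 10 of 48795 genes in the deposited table, and all 10 were present and passed the filter on low values in every comparison. The study asked how loss of the complex between the transcription factors MYC and MIZ1 alters germinal center (GC) B cells. GC B cells of the light zone (LZ), where cells are selected by T cell help, were sorted from 4 Myc WT and 4 Myc V394D (Myc VD) mice as CD38neg Fas+ cells that were CD86high and CXCR4low within the B220+ CD138neg IgDneg gate, and memory B cells (MBCs) from Myc WT mice 1, 3 and 4 as B220+ CD138neg IgDneg CD38+ CD273+ cells. All mice were females of 8 to 12 weeks on the C57BL/6 background, taken on day 10 after intravenous sheep red blood cells (SRBC). Myc VD mice carry, at the endogenous Myc locus and hence in every cell, the substitution V394D that abolishes binding to MIZ1. The mouse codes in the labels begin alike for Myc WT mice 1 to 3, differently for Myc WT mouse 4, and in a further way for all 4 Myc VD mice. What the start of a code stands for is not given in the sources used here, and it cannot be told apart from genotype.

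AP-1 is a dimer of basic leucine zipper proteins, made of a JUN family member (Jun, Junb or Jund) and a FOS family member (Fos, Fosb) or of JUN proteins alone. Immediate early genes are transcribed within minutes of a signal without new protein synthesis. In B cells the antigen receptor and CD40 act through RAS, MAP kinases, calcium and serum response factor on these genes, and their mRNAs decay fast. Their levels are also known to move while tissue is dissociated and sorted.

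Jun was the only one of the 10 genes to pass the adjusted threshold in any comparison, in MBCs against LZ B cells, while Egr2 had the largest difference in the other direction there without passing it. For this reason the sequences around the start sites of these genes are shown, from RefSeq on GRCm38.p6, from 250 bases before to 50 bases after the start site. The Jun window is chr4:95052173-95052472 on the minus strand, and the Egr2 window, 1 of 5 that RefSeq start sites give for this gene and the first of 3 that overlap, is chr10:67537619-67537918 on the plus strand. Both are written 5′ to 3′ on the strand of the gene, with a CRE-like site in capitals in Jun and a CArG box, the motif bound by serum response factor, in capitals in Egr2.
Jun: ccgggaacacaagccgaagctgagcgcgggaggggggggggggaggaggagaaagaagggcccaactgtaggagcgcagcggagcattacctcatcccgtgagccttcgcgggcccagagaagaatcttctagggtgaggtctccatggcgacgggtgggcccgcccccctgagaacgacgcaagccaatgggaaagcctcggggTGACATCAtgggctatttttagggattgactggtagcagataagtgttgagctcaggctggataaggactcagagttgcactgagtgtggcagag
Egr2: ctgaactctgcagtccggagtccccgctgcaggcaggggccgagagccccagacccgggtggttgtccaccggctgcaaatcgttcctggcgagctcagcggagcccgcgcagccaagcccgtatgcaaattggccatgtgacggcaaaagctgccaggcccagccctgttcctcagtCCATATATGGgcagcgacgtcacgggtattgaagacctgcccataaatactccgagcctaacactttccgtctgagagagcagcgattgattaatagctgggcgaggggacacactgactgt
In all, 8 of the 10 genes matched at least 1 of 32851 such windows, with 12 windows between them. Egr1 and Egr3 matched none and were not searched, nor were bases outside the windows. The CRE-like letters TGACATCA occurred in the Jun window with their first base at -45 from the start site, and in no other window of these genes, against 3.62% of all windows. The full CRE, TGACGTCA, was found in the Dusp1 window alone (1.79% of all windows), and a CArG box in 4 of the 5 Egr2 windows (1.63% of all windows). These 4 windows hold 2 distinct boxes, since the 3 windows that overlap share 1. The AP-1 site TGANTCA (7.81% of all windows) and the EGR site GCGTGGGCG (0.612%) were in none of the 12. Both strands were searched, and a match describes letters only.

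Values are TPM, estimated transcript numbers relative to the total of a library and scaled for transcript length, so levels can be set beside each other between genes. The read depth behind them is unknown, and a listing of 0 may stand for an estimate that failed. Of 6668 genes that averaged 10 TPM or more over LZ libraries, a single LZ library had 34 to 69 at 0, but the MBC libraries of mice 1, 3 and 4 had 253, 421 and 57. As these genes were chosen by their LZ level, genes silent in MBCs are counted here too. Ribosomal RNA took 35.7 to 44.5% of TPM in Myc WT LZ, 44.1 to 61.3% in Myc VD LZ and 36.1 to 37.5% in MBC libraries. The other mitochondrial genes took 1.06 to 1.76%, 1.95 to 2.35% and 2.39 to 3.82% in the same order, with no overlap. The summed level of 8 GC B cell genes was 1203 to 1641 TPM in LZ and 329 to 448 TPM in MBC libraries. That of 7 memory genes was 17.4 to 38.1 and 513 to 816 TPM. These lists hold genes of the sort markers (Fas, Cd38 and Pdcd1lg2, which encodes CD273), so part of this separation was set by the sort. Against Myc WT LZ, 5 memory genes were higher in MBCs and 2, Nt5e and Zbtb32, lower. Sums of 5 light zone genes overlapped, at 412 to 783 and 405 to 595 TPM. Those of 5 dark zone genes were 304 to 557 and 615 to 969 TPM, where only Foxp1 was higher in MBCs. Each difference is in log2(TPM + 1), where low genes appear to differ less than they do, and its p is from limma. In bulk samples, fewer cells expressing a gene and less RNA per cell cannot be told apart.

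Among the JUN family genes, Jun (ENSMUSG00000052684, chromosome 4, 95049034 to 95052222 on the minus strand, a gene of 1 exon) encodes the strongest activator of the family. In Myc WT LZ mice 1 to 4 it was at 6.75, 4.63, 3.86 and 4.26 TPM, in Myc VD LZ mice 1 to 4 at 5.33, 10.8, 9.83 and 15.7 TPM, and in MBCs of mice 1, 3 and 4 at 25.3, 33.7 and 21.3 TPM. All 3 MBC libraries lay above all 8 LZ libraries, and the MBC library was higher than the LZ library of its own mouse in 3 of 3 mice. In Myc VD LZ, 3 of the 4 mice were above every Myc WT LZ mouse and mouse 1 lay among them.

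Jun rose in MBCs from 4.88 ± 1.29 TPM (SD, n = 4) to 26.8 ± 6.33 TPM (SD, n = 3). The log2 difference was 2.24 (standard error (SE) 0.40, 95% interval 1.33 to 3.15), or 4.73-fold in TPM + 1, with an adjusted p of 0.0129 from limma. The exact permutation test gave a two-sided p of 0.0286, the smallest that 3 libraries against 4 allow. With the mouse as a block, a fit that keeps only the 3 mice with both libraries, the difference was 2.23 and the adjusted p 0.143 from limma, so the call was lost. It was also lost without Myc WT LZ mouse 2 (difference 2.23, adjusted p = 0.0604 from limma) and without mouse 3 (2.16, adjusted p = 0.0591 from limma). Over all libraries left out in turn the difference stayed between 2.07 and 2.39. Of all 13245 genes tested, 9.2% passed the adjusted threshold in this comparison, so that 1 of 10 genes was close to the background.

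Antisense to Jun lies Junos, and reads were counted by strand. Junos was listed at 0 in all 3 MBC libraries and reached at most 1.24 TPM in any LZ library. Markers of myeloid cells, which also transcribe Jun, were in sum higher in MBC than in LZ libraries, as Jun was. The summed TPM of 8 myeloid genes was 7.69 to 18.7 in Myc WT LZ, 10.9 to 18.2 in Myc VD LZ and 38.6 to 186 in MBC libraries. Of these 8, Csf1r and Itgam passed the adjusted threshold in MBCs (adjusted p = 0.00652 and 0.0137 from limma), while S100a8 and S100a9 were listed at 0 in every MBC library. The sums of the LZ groups overlapped. Within Myc WT LZ the sum was lowest in mouse 1, where Jun was highest, while within Myc VD LZ both were highest in mouse 4. Within the MBC libraries the order differed, as the sum was 38.6, 59.6 and 186 TPM in mice 1, 3 and 4, and Jun was lowest in mouse 4. The 5 genes of naive follicular B cells summed to 365 to 369 TPM in Myc WT LZ and 969 to 1077 TPM in MBCs, and 4 of the 5 passed the threshold. Hemoglobin and other erythroid genes, 7 in all, summed to 7.6, 6713 and 53.4 TPM in MBCs of mice 1, 3 and 4. The sum was 116 to 226 TPM in Myc WT LZ and 343, 410, 352 and 71.9 TPM in Myc VD LZ mice 1 to 4. Jun and Fos were highest among the MBC libraries in mouse 3. Without that library the difference in Jun was 2.07 (adjusted p = 0.0126 from limma). The part of the myeloid, naive follicular and erythroid cells in the level of Jun was not tested.

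In Myc VD LZ B cells, Jun was at 10.4 ± 4.25 TPM (SD, n = 4), a log2 difference of 0.90 from Myc WT LZ (standard error 0.36, 95% interval 0.11 to 1.69). The unadjusted p from limma was 0.0288 and the adjusted p 0.242, and the exact permutation test gave 0.0571. Over every other setting and every mouse left out in turn the difference stayed above 0, between 0.69 (without Myc VD mouse 4) and 1.25 (with ribosomal RNA removed). Against MBCs, Myc VD LZ was lower in Jun by a log2 difference of -1.34 (SE 0.51, unadjusted p = 0.0236 and adjusted p = 0.181 from limma). The Myc VD libraries thus had a mean between those of the other groups, and neither of these differences passed the adjusted threshold. The mitochondrial share of TPM had the same order of groups as Jun, and the same order of libraries within Myc VD LZ and within MBCs, but not within Myc WT LZ. Its part in the level of Jun was not tested.

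**Figure D1:**
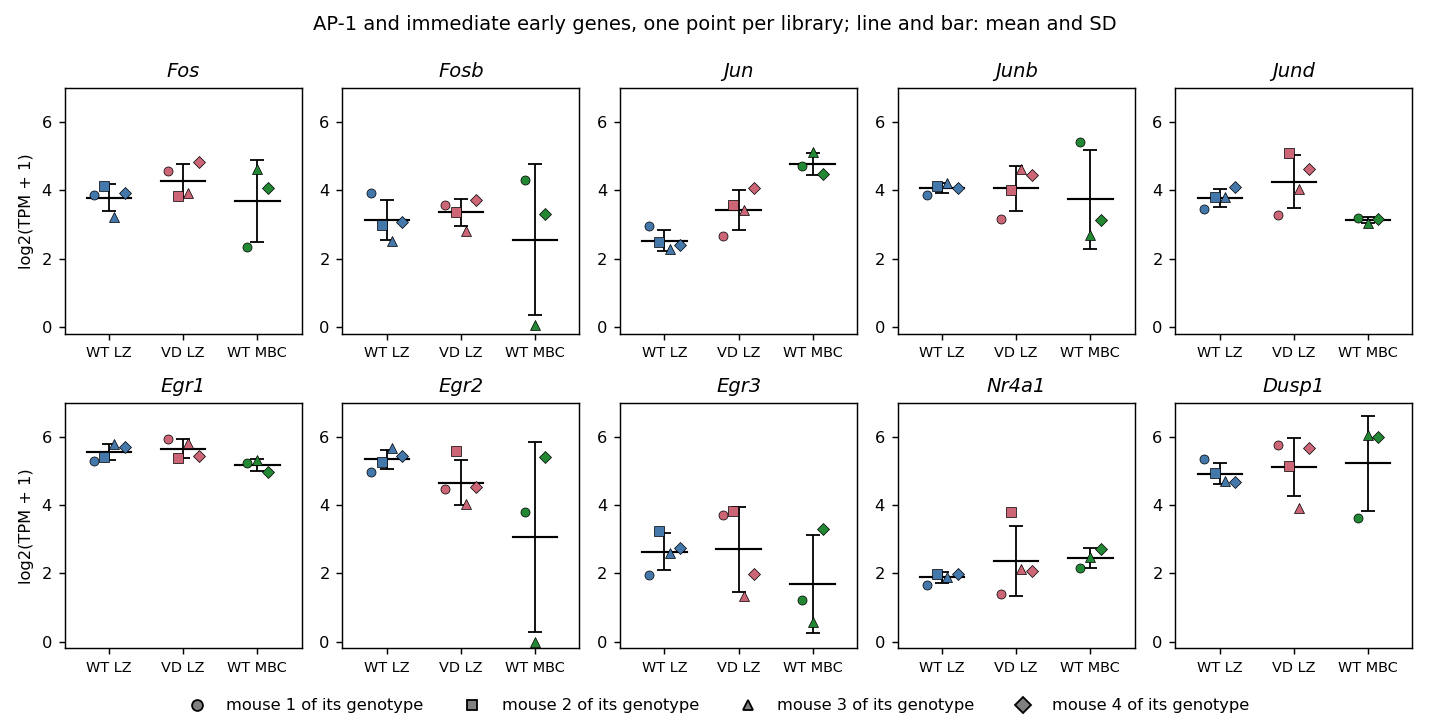
Level of each of the 10 genes in every library on the log2(TPM + 1) scale, by group (Myc WT LZ, Myc VD LZ, Myc WT MBC), with the group mean as a line and the SD as a bar. Symbols give the mouse number within its genotype, and only Myc WT LZ and MBC points of 1 symbol share a mouse; Jun in MBCs lies above all 8 LZ libraries, while Egr1 stays within a narrow range in all 11.

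Junb (ENSMUSG00000052837, chromosome 8, 84974484 to 84978718), a JUN protein that can restrain Jun, was the steadiest of the 10 genes in Myc WT LZ. It was at 13.7, 16.4, 17.7 and 15.7 TPM there, at 7.95, 15.2, 24.0 and 20.9 TPM in Myc VD LZ, and at 41.5, 5.50 and 7.75 TPM in MBCs. The MBC library of mouse 1 was the highest of all 11 and those of mice 3 and 4 the lowest. The log2 differences were -0.32 in MBCs against Myc WT LZ (adjusted p = 0.78 from limma) and -0.00 in Myc VD LZ (adjusted p = 0.999 from limma). The former kept its sign in all 9 other settings but turned to 0.20 without the MBC library of mouse 3, and the latter changed sign with the setting.

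Jund (ENSMUSG00000071076, chromosome 8, 70698949 to 70700616), the JUN gene that most resting cells express, lay on the other side of LZ B cells from Jun in MBCs. It was at 9.94, 13.0, 13.1 and 16.1 TPM in Myc WT LZ, at 8.79, 33.0, 15.5 and 23.7 TPM in Myc VD LZ, and at 8.23, 7.27 and 7.93 TPM in MBCs. All MBC libraries were below all 8 LZ libraries, and they were closer to each other than for any of the other 9 genes (SD of 0.08 on the log2 scale). The log2 difference in MBCs was -0.66 (SE 0.38, adjusted p = 0.304 from limma, with an exact permutation p = 0.0571), and it stayed between -0.77 and -0.55 with each library left out. The Myc VD LZ difference was 0.47 against Myc WT LZ (adjusted p = 0.547 from limma) and 1.12 against MBCs (adjusted p = 0.303 from limma). The former was 0.19 without Myc VD mouse 2 and 0.79 without Myc VD mouse 1.

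The make-up of the family by TPM was taken after the values of its members were seen, and is given without a test. Jun made up 22.2, 13.6, 11.2 and 11.8% of the summed TPM of Jun, Junb and Jund in Myc WT LZ mice 1 to 4. The share was 24.2, 18.3, 19.9 and 26.1% in Myc VD LZ mice 1 to 4 and 33.7, 72.5 and 57.6% in MBCs of mice 1, 3 and 4. Jund took 10.97, 15.6 and 21.4% in MBCs and 31.4 to 55.9% in LZ libraries, so the MBC libraries stood apart in both shares. The summed level of the family was 30.4 to 36.1 TPM in Myc WT LZ and 37.0 to 75.0 TPM in MBCs, which did not overlap, while Myc VD LZ, at 22.1 to 60.3 TPM, overlapped with both.

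**Figure D2:**
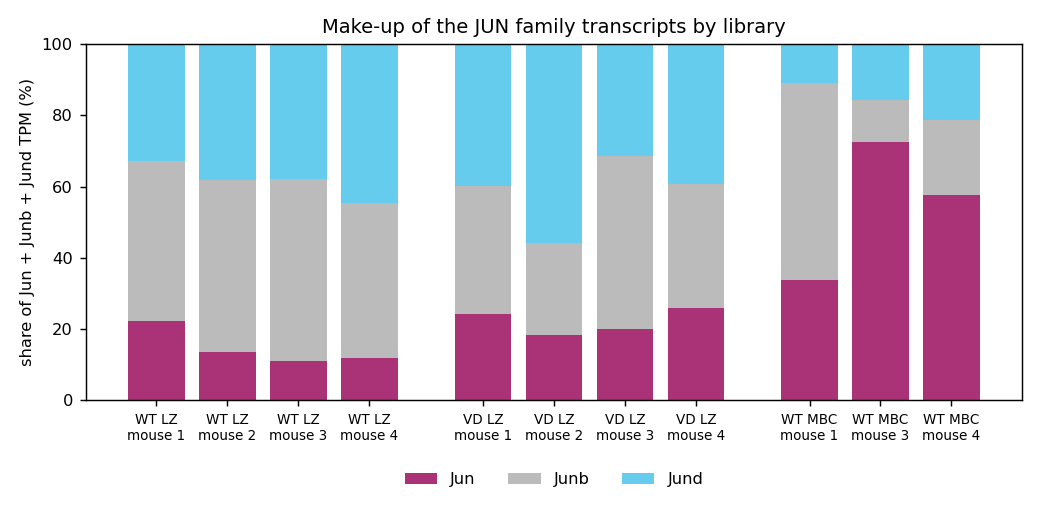
Shares of Jun, Junb and Jund in their summed TPM, in percent, with 1 bar per library. Jun is the smallest share in all 8 LZ bars (11.2 to 26.1%) and the largest in MBCs of mice 3 and 4 (72.5 and 57.6%), while Junb is the largest in MBCs of mouse 1.

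Of the FOS family, Fos (ENSMUSG00000021250, chromosome 12, 85473890 to 85477273) encodes the classical partner of Jun. It was at 13.5, 16.7, 8.30 and 14.1 TPM in Myc WT LZ, at 22.6, 13.3, 14.3 and 27.6 TPM in Myc VD LZ, and at 4.05, 23.9 and 15.97 TPM in MBCs. The groups overlapped, and the MBC libraries held the lowest value of all 11. The log2 difference was 0.50 in Myc VD LZ (95% interval -0.20 to 1.21, adjusted p = 0.448 from limma) and -0.10 in MBCs against Myc WT LZ (95% interval -1.42 to 1.22, adjusted p = 0.934 from limma). The latter turned to 0.58 without MBC mouse 1, and to 0.021 without Myc WT LZ mouse 2 or with the mouse as a block.

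Fosb (ENSMUSG00000003545, chromosome 7, 19302696 to 19310051), a second FOS partner, was at 14.3, 6.87, 4.76 and 7.44 TPM in Myc WT LZ and at 10.9, 9.30, 6.01 and 12.1 TPM in Myc VD LZ. In MBCs of mice 1, 3 and 4 it was at 18.9, 0.04 and 8.86 TPM, the highest and the lowest of all libraries. The log2 differences from Myc WT LZ were 0.23 in Myc VD LZ (adjusted p = 0.776 from limma) and -0.57 in MBCs (95% interval -2.70 to 1.56, adjusted p = 0.737 from limma). The MBC library of mouse 3 is the one with 421 LZ genes listed at 0, and without it the difference in MBCs was 0.68.

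The summed level of Fos and Fosb was close between the MBC libraries, at 22.98, 23.95 and 24.8 TPM, against 13.1 to 27.8 TPM in Myc WT LZ and 20.3 to 39.6 TPM in Myc VD LZ. Its make-up was not, since Fos took 17.6, 99.8 and 64.3% of it in MBCs of mice 1, 3 and 4.

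Among the EGR zinc finger factors, which MAP kinase signals induce, Egr1 (ENSMUSG00000038418, chromosome 18, 34859823 to 34864984) had the highest mean of the 10 genes in both LZ groups. It was at 38.3, 41.9, 54.8 and 51.0 TPM in Myc WT LZ, at 61.3, 41.3, 55.7 and 43.0 TPM in Myc VD LZ, and at 37.1, 39.2 and 30.7 TPM in MBCs. All 11 libraries lay within 30.7 to 61.3 TPM, with all Myc VD LZ above all MBC libraries. The log2 differences were 0.11 in Myc VD LZ (95% interval -0.39 to 0.60, adjusted p = 0.842 from limma) and -0.37 in MBCs (95% interval -0.99 to 0.26, adjusted p = 0.428 from limma) against Myc WT LZ. Between Myc VD LZ and MBCs it was 0.47 (adjusted p = 0.508 from limma, with an exact permutation p = 0.0857).

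Egr2 (ENSMUSG00000037868, chromosome 10, 67535475 to 67542188), which with Egr3 restrains activation of lymphocytes, was close to Egr1 in Myc WT LZ, at 30.8, 37.8, 49.9 and 42.8 TPM. It was at 21.2, 47.7, 15.5 and 22.3 TPM in Myc VD LZ, where 3 of 4 mice lay below every Myc WT LZ mouse. In MBCs of mice 1, 3 and 4 it was at 13.1, 0 and 41.5 TPM. The library of mouse 4 was at the level of LZ B cells and the other two were below every Myc WT LZ library. The log2 difference in MBCs was -2.27 (SE 1.06, 95% interval -4.67 to 0.12, adjusted p = 0.205 from limma, with an exact permutation p = 0.0857). It was -0.74 without the library of mouse 3 (adjusted p = 0.287 from limma), in which Egr2 is listed at 0, and -3.44 without that of mouse 4 (adjusted p = 0.0430 from limma), so that single libraries decide it. For Myc VD LZ against Myc WT LZ the log2 difference was -0.68 (95% interval -1.40 to 0.03, unadjusted p = 0.0591 and adjusted p = 0.317 from limma, with an exact permutation p = 0.114).

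Egr3 (ENSMUSG00000033730, chromosome 14, 70077203 to 70082614) had a lower mean than Egr1 and Egr2 in all 3 groups. It was at 2.87, 8.50, 5.11 and 5.73 TPM in Myc WT LZ, at 12.1, 13.3, 1.54 and 2.93 TPM in Myc VD LZ, and at 1.33, 0.48 and 8.92 TPM in MBCs. In Myc VD LZ the mice divided, with 2 above and 1 below every Myc WT LZ mouse. The log2 differences from Myc WT LZ were 0.08 in Myc VD LZ (adjusted p = 0.961 from limma) and -0.94 in MBCs (95% interval -2.57 to 0.69, adjusted p = 0.436 from limma). The latter was -0.38 without the MBC library of mouse 3 and -1.75 without that of mouse 4. As for Egr2, MBCs of mouse 3 were lowest and those of mouse 4 highest.

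Nr4a1 (ENSMUSG00000023034, chromosome 15, 101254269 to 101274795), the orphan nuclear receptor NUR77 that reports antigen receptor signaling, had the lowest mean of the 10 genes in both LZ groups. It was at 2.15, 2.97, 2.71 and 2.98 TPM in Myc WT LZ and at 3.46, 4.64 and 5.63 TPM in MBCs, where all 3 libraries lay above all 4. It was at 1.66, 13.1, 3.42 and 3.18 TPM in Myc VD LZ, with mouse 2 the highest of all 11 libraries. The log2 difference in MBCs was 0.58 (SE 0.46, adjusted p = 0.453 from limma, with an exact permutation p = 0.0286), and it stayed between 0.44 and 0.73 with each library left out. Against Myc WT LZ, the difference in Myc VD LZ was 0.48 (adjusted p = 0.643 from limma), and -0.01 without mouse 2.

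Dusp1 (ENSMUSG00000024190, chromosome 17, 26505590 to 26562128) encodes a phosphatase that switches MAP kinases off and is itself an immediate early gene. It was at 39.8, 29.7, 25.4 and 24.6 TPM in Myc WT LZ, at 53.5, 34.8, 14.0 and 50.2 TPM in Myc VD LZ, and at 11.4, 66.3 and 63.3 TPM in MBCs. MBCs of mouse 1 had the lowest and those of mice 3 and 4 the highest values of all libraries, the reverse of the order of Junb. The log2 differences from Myc WT LZ were 0.21 in Myc VD LZ (adjusted p = 0.817 from limma) and 0.31 in MBCs (95% interval -1.01 to 1.64, adjusted p = 0.773 from limma), and without MBC mouse 3 the latter was -0.11.

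By comparison, 0 of the 10 genes passed the adjusted threshold between Myc VD LZ and Myc WT LZ by limma, where 0.0466% of 12869 genes did. Without adjustment 1 of 10 had a p under 0.05, Jun, against 16.9% of all genes, and 0 of 10 had groups that did not overlap, against 9.98%. By sign 8 of 10 were higher in Myc VD LZ, beside 3390 of 12869 for all genes. The median log2 difference of the 10 was 0.22 against -0.31 for all genes tested, and 9 of 10, all but Egr2, lay above the all-gene median. Rescaling by the median ratio took the all-gene median to -0.01, and Junb, at 0.33, then joined the genes that were higher.

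Between MBCs and Myc WT LZ, 1 of 10 passed the adjusted threshold, and the unadjusted p was under 0.05 for Jun alone against 27.1% of all genes. The groups did not overlap for 3 of 10 (Jun and Nr4a1 higher, Jund lower in MBCs), against 26.2% of all genes. By sign 3 were higher and 7 lower in MBCs, beside 5922 higher and 7323 lower for all genes. The median log2 difference of the 10 was -0.35 against -0.14 for all genes. Between Myc VD LZ and MBCs, 0 of 10 passed the adjusted threshold by limma (3.88% of all genes), 1 had an unadjusted p under 0.05 (19.3% of all genes) and 3, Jun, Jund and Egr1, did not overlap (18.5% of all genes). The median log2 difference there was 0.54 against -0.16 for all genes. These comparisons share libraries, so their values are not independent of each other.

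**Figure D3:**
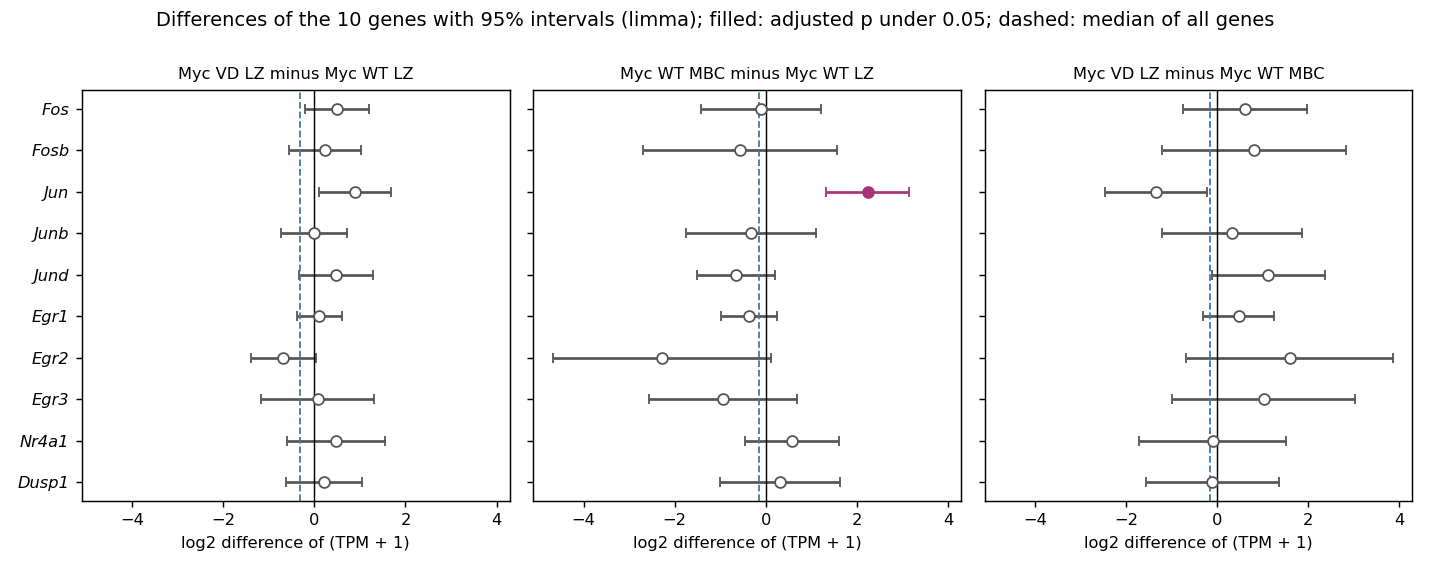
Log2 differences of (TPM + 1) of the 10 genes in the 3 comparisons, with 95% intervals from limma. A filled point marks an adjusted p under 0.05, which only Jun in MBCs against Myc WT LZ had (2.24), and the dashed line is the median of all genes tested (-0.31, -0.14 and -0.16).

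The spread between mice was also described by group. The median SD of the 10 genes on the log2(TPM + 1) scale was 0.29 in Myc WT LZ, 0.66 in Myc VD LZ and 1.297 in MBCs, against 0.34, 0.62 and 1.055 for all genes that averaged 1 TPM or more in the group. In MBCs the SD ran from 0.08 for Jund and 0.18 for Egr1 to 2.23 for Fosb and 2.78 for Egr2. The levels of the 10 genes were also set against each other over the 11 libraries. Of the 45 pairs of these genes, 25 had a positive Pearson r on the log2 scale, 4 were above 0.5 and 5 below -0.5, with a median r of 0.10 and a range from -0.87 to 0.77.

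The other genes of the pathway were given by 8 lists. Of their 98 genes tested in MBCs against Myc WT LZ, 9 passed the adjusted threshold, or 9.18% beside 9.2% of all genes, so the lists together were at the background. Among 12 further AP-1 and related leucine zipper genes, 7 were tested, and in MBCs 1 fell and 0 rose. The gene that fell was Atf4, the effector of the integrated stress response, at 83.5, 88.4, 91.1 and 60.7 TPM in Myc WT LZ and 17.1, 9.90 and 40.9 TPM in MBCs (-2.001 on the log2 scale, with a standard error of 0.45 and an adjusted p of 0.0282 from limma). Batf, which pairs with JUN proteins and drives class switching, was at 36.3 to 46.0 TPM in Myc WT LZ and 5.05 to 57.6 TPM in MBCs and is named here after its values were seen. Fosl1, Batf3 and Atf3, chosen in the same way, were under 0.5 TPM in all 11 libraries.

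Of 18 other immediate early genes, 13 were tested in MBCs against Myc WT LZ, of which 1 rose and 1 fell, with a median log2 difference of 0.63. Without adjustment 7 of the 13 had a p under 0.05 by limma, against 27.1% of all genes. The groups did not overlap for 7, against 26.2%. Over the 8 lists together, 28 of 98 genes had such an unadjusted p (28.6%). Ier5, a growth factor-inducible regulator of heat shock factor, was at 11.3, 13.3, 17.5 and 14.6 TPM in Myc WT LZ, at 15.4, 6.01, 24.5 and 15.4 TPM in Myc VD LZ and at 77.0, 52.4 and 93.8 TPM in MBCs. It rose in MBCs by 2.29 on the log2 scale (standard error 0.33, adjusted p = 0.00563 from limma), about as much as Jun. Rgs2, which limits signaling of G protein-coupled receptors, was at 185, 240, 190 and 211 TPM in Myc WT LZ and 102, 64.6 and 80.1 TPM in MBCs. It fell by 1.34 on the log2 scale in MBCs (standard error 0.23, adjusted p = 0.0122 from limma). Both also passed between Myc VD LZ and MBCs, with log2 differences of -2.31 for Ier5 and 1.41 for Rgs2 (adjusted p = 0.0289 and 0.0252 from limma). With Rasa1 they were the 3 called of 101 list genes tested there, or 2.97% beside 3.88% of all genes. These calls of Ier5 and Rgs2 were lost in 5 and 4 of the 7 fits that left out 1 library, with adjusted p up to 0.0755 and 0.0854 from limma, and in 4 and 2 of the 8 other settings, with adjusted p up to 0.0755 and 0.141 from limma.

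Of 14 factors that act on these genes, such as Srf, the Elk and CREB genes and NFAT, all 14 were tested and 0 passed by limma in MBCs. Without adjustment 4 had a p under 0.05, close to the share of 27.1% over all genes. By sign 13 of 14 were higher in MBCs, beside 5922 of 13245 for all genes, with a median log2 difference of 0.44 against -0.14 for all genes. Nfatc2, a calcium-activated factor, differed most, at 16.9 to 22.0 TPM in Myc WT LZ and 36.1, 148 and 33.1 TPM in MBCs (log2 difference 1.55, adjusted p = 0.0921 from limma). Its value of 148 TPM is from the MBC library of mouse 3, the one with 421 LZ genes listed at 0, and the ranking leans on it.

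Of 19 RAS and MAP kinase genes, all tested, 1 rose and 1 fell in MBCs. Map2k4, a kinase that activates JNK, the kinase of Jun, was at 17.5, 24.3, 27.3 and 23.6 TPM in Myc WT LZ and at 56.9, 98.1 and 45.3 TPM in MBCs (log2 difference 1.43, SE 0.35, adjusted p = 0.0368 from limma). Map2k4 was at 10.0, 60.9, 10.3 and 9.60 TPM in Myc VD LZ. Hras, a RAS GTPase, fell by 3.02 on the log2 scale (standard error 0.65, adjusted p = 0.0253 from limma), from 9.09 to 16.3 TPM in Myc WT LZ to listings of 0, 0 and 3.66 TPM in MBCs. Its size depends on the pseudocount, being -5.23 with 0.1 TPM in place of 1. The MBC libraries of mice 1 and 3, where Hras is listed at 0, are those with the most LZ genes at 0.

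Of 14 feedback inhibitors, 11 were tested in MBCs, of which 1 rose and 1 fell, with a median log2 difference of -0.80. Dusp10, a phosphatase of JNK and p38, was at 34.6, 36.1, 37.0 and 43.1 TPM in Myc WT LZ and at 9.29, 13.9 and 19.96 TPM in MBCs (log2 difference -1.39, SE 0.34, adjusted p = 0.0392 from limma). It was at 30.5 to 35.7 TPM in Myc VD LZ. Rasa1, which turns RAS off, was at 41.0, 39.8, 43.5 and 53.8 TPM in Myc WT LZ and at 125, 139 and 73.9 TPM in MBCs (log2 difference 1.28, SE 0.29, adjusted p = 0.031 from limma). It was also called between Myc VD LZ and MBCs, with a log2 difference of -1.91 (adjusted p = 0.0235 from limma). That call was lost in 5 of the 7 fits with 1 library left out (adjusted p up to 0.0796 from limma) and in 2 of 8 other settings (up to 0.0871).

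Of 14 response genes of activated B cells, 12 were tested and 0 passed by limma in MBCs, with 2 at an unadjusted p under 0.05, against 27.1% of all genes. Of 15 heat shock and tissue dissociation response genes, 11 were tested in MBCs, and 1 fell, the mitochondrial chaperonin gene Hspe1, from 171 to 332 TPM in Myc WT LZ to 49.8 to 127 TPM in MBCs (log2 difference -1.61, adjusted p = 0.0265 from limma). The inducible Hspa1a, Hspa1b and Hspb1 were under 4 TPM in all 11 libraries, and are named after their values were seen. Of 11 genes for decay of AU-rich mRNAs, the class to which Fos and Jun mRNAs belong, all were tested and 1 fell, Khsrp, from 38.5 to 56.7 TPM in Myc WT LZ to 5.42, 16.4 and 15.0 TPM in MBCs (log2 difference -1.91, adjusted p = 0.0265 from limma). With the mouse as a block, none of the 9 list genes called in MBCs passed the adjusted threshold, with adjusted p from 0.0574 for Ier5 to 0.239 for Dusp10 from limma and the sign of each as before. Of the 9 settings other than leaving out a library, the block included, 4 ended the call of Map2k4 and Rasa1, 3 that of Atf4, Dusp10 and Hspe1, 2 that of Hras and Khsrp, and 1, the block, that of Ier5 and Rgs2. Leaving out any 1 of the 4 Myc WT LZ libraries ended the call of 7 of these 9, with adjusted p up to 0.129 from limma, and that of Rgs2 was lost without mouse 2 alone (adjusted p = 0.0585 from limma). The call of Ier5 held with each library left out.

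**Figure D4:**
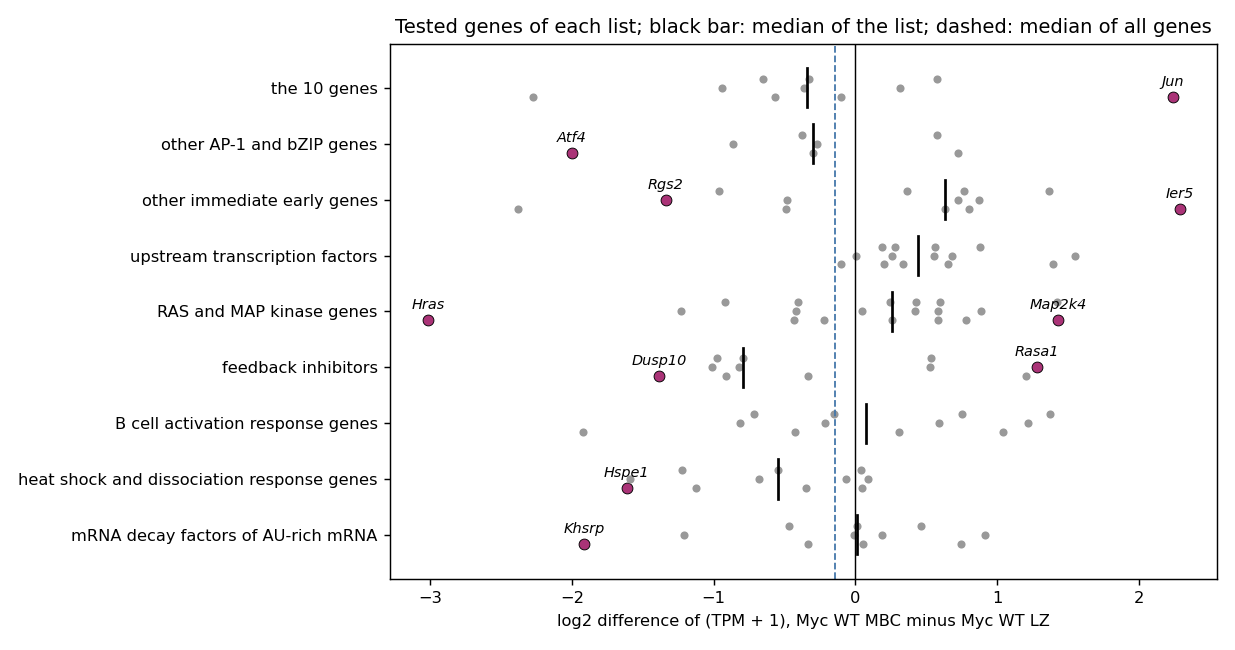
Log2 differences of (TPM + 1) between MBCs and Myc WT LZ B cells for the tested genes of each list, 1 point per gene, with the list median as a black bar and the all-gene median (-0.14) as a dashed line. Named points passed an adjusted p of 0.05, among them Jun (2.24), Ier5 (2.29) and Map2k4 (1.43) on the right and Hras (-3.02), Atf4 (-2.001) and Dusp10 (-1.39) on the left.

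Between Myc VD LZ and Myc WT LZ, 0 genes of the 8 lists passed the adjusted threshold by limma, with 11 of 97 tested at an unadjusted p under 0.05 (11.3%, beside 16.9% of all genes). The list medians ran from -0.31 for RAS and MAP kinase genes to 0.07 for the other immediate early genes, beside -0.31 for all genes. Hspe1 came nearest, with a log2 difference of -1.20 (adjusted p = 0.0801 from limma) and groups that did not overlap, at 88.5 to 116 TPM in Myc VD LZ. The tested genes with the largest difference in the other lists were Hras (-0.93), Klf10 (-0.87), Cnot8 (-0.86), Spry2 (0.81), Icam1 (-0.81), Crem (-0.78) and Atf4 (-0.47), none past the threshold. Spry2 was at 9.86 TPM in Myc VD mouse 1 and listed at 0 in the other 3 Myc VD mice, so 1 library made its difference. Crem was at 4.39, 0, 9.01 and 4.25 TPM in Myc VD mice 1 to 4 and at 5.09 to 7.11 TPM in Myc WT LZ.

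The genes whose levels over the 11 libraries were most like those of each of the 10 were sought among 9222 genes that averaged 5 TPM or more, by Pearson r on the log2(TPM + 1) scale. For Fos the first was Gadd45g (r = 0.91), a growth arrest and stress gene, followed by Gm24371 (0.88), Gripap1 (0.85), Gtpbp6 (0.85) and Pex10 (0.83). For Egr1 they were Gm42578 (0.84), Sapcd2 (0.84), Tmem107 (0.82), Sh3glb2 (0.82) and Hist2h2bb (0.80). The first for Jun was Kmt2a (0.91), a histone methyltransferase gene, at 69.4 to 95.2 TPM in LZ and 142 to 160 TPM in MBC libraries. The first for each of the others were Fbrs for Fosb (0.95), Polg2 for Junb (0.93), Hist1h4h for Jund (0.88), Cul4a for Egr2 (0.98), Neurl3 for Egr3 (0.95), Kdm2b for Nr4a1 (0.87) and Kansl3 for Dusp1 (0.89). The points share libraries and their missing genes, so these values of r describe the libraries only, and none of the 10 genes was first for another.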

How the data were processed

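RNA of 11 libraries from 8 mice was analysed, 4 of Myc WT LZ, 4 of Myc VD LZ and 3 of MBCs. Per the labels' processing notes and the methods, the authors aligned reads with STAR 2.5.2a, estimated transcripts by strand with RSEM 1.3.0 on GRCm38 and deposited TPM with 2 decimals. TPM keep no depth, and counts, on which the authors ran DESeq2 (version 1.18.1 in the processing notes, an earlier one in the methods), were not analysed here. Precision rests on the spread between mice.

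Groups were compared in pairs with limma 3.58.1 (R 4.3.3, variance trend on). Values entered as log2(TPM + 1), and genes averaging under 1 TPM in the libraries compared were left out. Tests were two-sided, and p was adjusted by Benjamini-Hochberg with a threshold of 0.05. For each of the 10 genes an exact permutation test took all 70 or 35 groupings of the libraries. The fits were tested on simulated data. Coordinates came from GENCODE M21 on GRCm38, which named 48349 of 48795 genes, and start site windows from RefSeq.

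By the labels, an MBC and an LZ library with 1 number shared a mouse, and their deviations from group means correlated with r = 0.00684, 0.00177 and -0.0343. The reported fits had no block. Alternatives were another pseudocount, other filters, 3 rescalings, a fit over all 3 groups, limma with no trend, a block for the mouse and leaving out each library.

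The members and lists were chosen with earlier results of these data known. Besides the 10 genes, the text names list genes past the adjusted threshold, otherwise the tested gene with the largest difference, and by likeness 5 genes for Fos and Egr1 and 1 for each other gene. Figures were drawn with matplotlib 3.10.9.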

Additional observations from a re-analysis of the deposited data

How the results depend on the processing

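Over 10 genes in 3 comparisons and the 12 list results past the threshold, 541 values under an alternative kept their direction and side of the threshold, 32 reversed, 82 fell back across it and 1 passed it anew. The genes called between Myc VD LZ and Myc WT LZ, 6 as reported, were 0 with a pseudocount of 0.1, no filter, median-ratio rescaling or all 3 groups in 1 fit, 1 with quantile normalization or ribosomal RNA removed, 15 at a mean of at least 5 TPM, and 0 to 254 with 1 library left out (254 without Myc VD mouse 1). In MBCs against Myc WT LZ, 1219 became 608 without a filter, 248 with the mouse as a replicate block, and 342 (without Myc WT LZ mouse 2) to 2754 (without MBC mouse 4). Between Myc VD LZ and MBCs, 509 became 202 without a filter, 284 without a trend, 1578 with all 3 groups in 1 fit and 203 to 731 with 1 library left out. There the split of 178 higher and 331 lower turned to 302 and 230 with median-ratio rescaling, 371 and 266 with quantile normalization, and 304 and 191 without ribosomal RNA. Of the 10 genes, the 1 called in MBCs became 0 under the block and 0 to 2 with 1 library left out, the other being Egr2 without MBC mouse 4. The block changed no other call among the 10.

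Of the log2 differences that reversed, Junb in Myc VD LZ against Myc WT LZ was 0.33, 0.29 and 0.30 under median-ratio, quantile and ribosomal RNA settings. With 1 library left out it ran from -0.19 to 0.30, Egr3 from -0.30 to 0.53, Nr4a1 from -0.0092 to 0.79 and Dusp1 from -0.0064 to 0.61. In MBCs against Myc WT LZ, Fos was 0.021 under the block and -0.57 to 0.58 with 1 library left out, Fosb -1.45 to 0.68, Junb -1.16 to 0.20 and Dusp1 -0.11 to 1.12. Between Myc VD LZ and MBCs these ranges were -0.071 to 1.08 for Fos, -0.45 to 1.68 for Fosb, -0.20 to 1.16 for Junb, -0.59 to 0.21 for Nr4a1 and -0.91 to 0.31 for Dusp1. Nr4a1 was also 0.15 with median-ratio rescaling and 0.22 without ribosomal RNA, and Dusp1 0.19, 0.30 and 0.29 under median-ratio, quantile and ribosomal RNA settings. The cause was not tested. Depth is unknown, so the limits are the 3 or 4 mice per group and the genes listed at 0 in MBCs of mice 1 and 3.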
